A study of Mus musculus with 28 samples.

Results

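The 26S proteasome was followed through the transcripts of its constitutive subunits in CD4+ T cells of the mouse small intestine. The genes were taken by symbol, Psma, Psmb, Psmc, Psmd or Psme followed by a digit, leaving out the interferon-inducible subunits Psmb8, Psmb9 and Psmb10. This gave 42 of the 25124 genes in the deposited table. They comprise 8 genes of the 20S alpha ring, 8 of the 20S beta ring, 6 ATPases and 11 other subunits of the 19S cap, 3 assembly chaperones of the cap and 5 genes of activators that dock on the 20S core. The remaining gene, Psmc3ip, matches by symbol alone. It encodes a meiotic recombination factor named for binding to Psmc3, and is no proteasome subunit.

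Sorted live CD45+ CD90.2+ TCRb+ CD4+ cells from the small intestinal lamina propria were sequenced as bulk RNA in 28 libraries. All came from mice of the T-bet-ZsGreen genotype, a fluorescent reporter of the transcription factor T-bet, so treated and control mice alike carried the reporter. Mice lived specific-pathogen-free (SPF), with gut microbes present, or germ-free (GF), with none. They were given either anti-CD3 (aCD3), which binds the signalling chains of the T cell receptor, or a control antibody of the same isotype. The groups held 6 SPF isotype libraries (3 female, 3 male), 6 SPF aCD3 (3 female, 3 male), 10 GF isotype (5 female, 5 male) and 6 GF aCD3 (1 female, 5 male). Libraries are named below by the sex letter and replicate number of their titles. The labels used here give no age, dose or sampling time and do not say that each library is a separate animal, so p-values measure the spread between libraries, which may be partly technical.

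The proteasome degrades proteins that carry ubiquitin chains. The 20S core is a barrel of stacked alpha and beta rings whose beta subunits Psmb6, Psmb7 and Psmb5 carry the caspase-like, trypsin-like and chymotrypsin-like sites. The 19S cap binds the chain, removes it and drives the unfolded substrate into the barrel with a ring of ATPases. Cells stimulated by interferon replace the catalytic beta subunits with Psmb9, Psmb10 and Psmb8, and lymphocytes hold much of this immunoproteasome even at rest.

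Each library held between 6765520 and 17860865 reads in genes. Values are the authors' TPM, reads scaled to gene length and library total, divided here by a size factor per library (scaled TPM), because histone genes took 4.05% to 9.54% of TPM in the isotype libraries and 24.07% to 27.15% in SPF aCD3. The GF aCD3 libraries split on this measure, with 23.78%, 23.42% and 26.31% in M1, M2 and M5 but 5.67%, 7.79% and 6.71% in F1, M3 and M4, within the isotype range. The main counts that rest on GF aCD3 are therefore given with all 6 libraries and, beside them, without F1, M3 and M4. Values of single genes are given both ways for some genes only. The 10 T cell markers were high in all groups, summing to 1974 to 2243 scaled TPM per library in SPF isotype, 2453 to 2787 in SPF aCD3, 1906 to 2116 in GF isotype and 1832 to 2337 in GF aCD3. The 8 B and plasma cell markers summed to between 111.9 and 259.2 in SPF isotype and between 4.12 and 12.02 in SPF aCD3. That difference was mostly Jchain, while Ms4a1 and Pax5 had medians of at most 0.07 in both groups. Among 8 myeloid markers, Cd68 rose from a median of 6.63 to 97.8 scaled TPM and the other 7 had medians under 1 in both SPF groups. The 6 stromal markers had a median sum of 23.9 (4.00 to 39.9) in SPF isotype and 2.49 (0.652 to 2.84) in SPF aCD3, the 5 erythroid markers stood at medians of 7.02 and 1.13, and the CD8 T cell markers Cd8a and Cd8b1 at 7.74 and 21.3. GF isotype stood at a median of 30.8 (9.73 to 104.5) for the B and plasma cell markers and 1.06 (0.334 to 2.29) for the stromal ones, below every SPF isotype library in both. In GF aCD3, 6 pancreatic acinar genes summed to between 2.60 and 315.6, against 0.353 to 49.6 in GF isotype. The part of these other transcripts in the proteasome results was not tested, and in bulk RNA fewer cells of a type and less RNA per cell cannot be told apart.

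The promoters of 4 members are shown because the aCD3 response described below ran through most of the family: Psmb5, Psma4 and Psmd12 rose with it, and Psmd4 was not called. Each is the RefSeq sequence (build GRCm38.p6, strand of the gene) of 300 bases, 250 before and 50 after the annotated start. Capitals mark matches, on either strand, to TGACNNNGC or TGAGNNNGC, the core of the antioxidant response element that Nfe2l1 and Nfe2l2 bind with small Maf proteins, and to CGGAAG, the core bound by ETS factors. The 4 promoters do not stand for the split of the motifs. A TGACNNNGC or TGAGNNNGC match lay in 13 of the 26 higher members with a promoter and in 3 of the 8 uncalled ones (Psmd5, Psmd9 and Psmd13). CGGAAG lay in 18 of the 26 and in 2 of the 8, and neither difference was tested. Among the promoters shown, CGGAAG is nonetheless marked in the uncalled Psmd4 and not in Psmb5. They lie at chr14:54617946-54618245 (Psmb5, minus strand), chr9:54950609-54950908 (Psma4, plus), chr11:107479278-107479577 (Psmd12, plus) and chr3:95042565-95042864 (Psmd4, minus).
Psmb5: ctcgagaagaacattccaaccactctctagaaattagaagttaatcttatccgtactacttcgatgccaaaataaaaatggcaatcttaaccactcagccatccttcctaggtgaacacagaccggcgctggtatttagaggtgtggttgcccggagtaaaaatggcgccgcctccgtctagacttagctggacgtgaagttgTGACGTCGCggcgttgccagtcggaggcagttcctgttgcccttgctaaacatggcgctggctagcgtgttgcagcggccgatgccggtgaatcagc
Psma4: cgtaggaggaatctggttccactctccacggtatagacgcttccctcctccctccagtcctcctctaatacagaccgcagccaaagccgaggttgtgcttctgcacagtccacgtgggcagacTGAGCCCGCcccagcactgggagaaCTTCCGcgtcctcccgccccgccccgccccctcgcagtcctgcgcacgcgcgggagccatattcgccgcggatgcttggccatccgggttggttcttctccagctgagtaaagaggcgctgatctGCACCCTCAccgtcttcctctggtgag
Psmd12: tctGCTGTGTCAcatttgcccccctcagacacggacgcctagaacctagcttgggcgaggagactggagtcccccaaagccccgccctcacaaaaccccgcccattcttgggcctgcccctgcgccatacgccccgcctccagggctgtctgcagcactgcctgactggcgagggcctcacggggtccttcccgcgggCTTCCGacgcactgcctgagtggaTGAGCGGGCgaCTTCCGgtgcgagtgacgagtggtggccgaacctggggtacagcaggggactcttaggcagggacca
Psmd4: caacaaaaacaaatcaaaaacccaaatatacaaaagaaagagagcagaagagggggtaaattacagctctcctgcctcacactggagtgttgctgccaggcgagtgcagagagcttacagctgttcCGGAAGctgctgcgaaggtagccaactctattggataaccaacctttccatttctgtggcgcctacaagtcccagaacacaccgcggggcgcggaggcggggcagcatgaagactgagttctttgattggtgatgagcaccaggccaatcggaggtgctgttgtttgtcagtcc

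A promoter was found for 35 of the 42 members. Psma8, Psmb1, Psmb2, Psmb7, Psmc3, Psmd3 and Psmd7 were not matched. In Psmb5 the only marked match was TGACNNNGC, starting 47 bases before the start. Psmb6 had the same motif 9 bases before its start. TGACNNNGC was found in 6 of 35 members (17.1%) against 16.9% of the 9156 tested genes with a promoter, and TGAGNNNGC in 12 (34.3%) against 22.8%. CGGAAG was found in 21 of 35 (60.0%) against 37.1% of tested genes and 18.8% of all 27025 promoters. CCAAT, the core bound by NF-Y, was in 14 of 35 against 42.9%, and CACGTG, the E-box, which reads the same on both strands, in 3 (8.6%) against 11.9%. None of these motifs contains another, and a match is a description of letters, not a site.

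In SPF mice, most proteasome genes were higher after aCD3. Of the 40 members that passed the filter on low values, 31 were higher and 0 lower in SPF aCD3 than in SPF isotype (limma, Benjamini-Hochberg adjusted p under 0.05). Among all 12132 genes tested, 30.9% were higher and 29.2% lower. The median log2 fold change was 0.56 over the 40 members and -0.003 over all genes. In 25 of 40 members every aCD3 library lay above every isotype library, as did 20.6% of all genes. By library, 29 to 32 of the members lay above every isotype library, against 32.1% to 34.4% of all genes. The median member had 696 reads per library in SPF isotype and 776 in SPF aCD3. These directions depend on the scaling, since with TPM as deposited 17 members were higher and 6 lower, while the median of all genes shifted by -0.35 and 14.2% of genes were higher and 50.7% lower. On that scale the median member stood at 0.15. The same shift was -0.15 for aCD3 in GF mice, 0.15 for GF against SPF isotype and 0.34 for GF against SPF aCD3. With TPM recomputed without Rn45s and histone genes, 26 members were higher and 0 lower, where 22.6% of genes were higher and 35.1% lower.

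**Figure D1:**
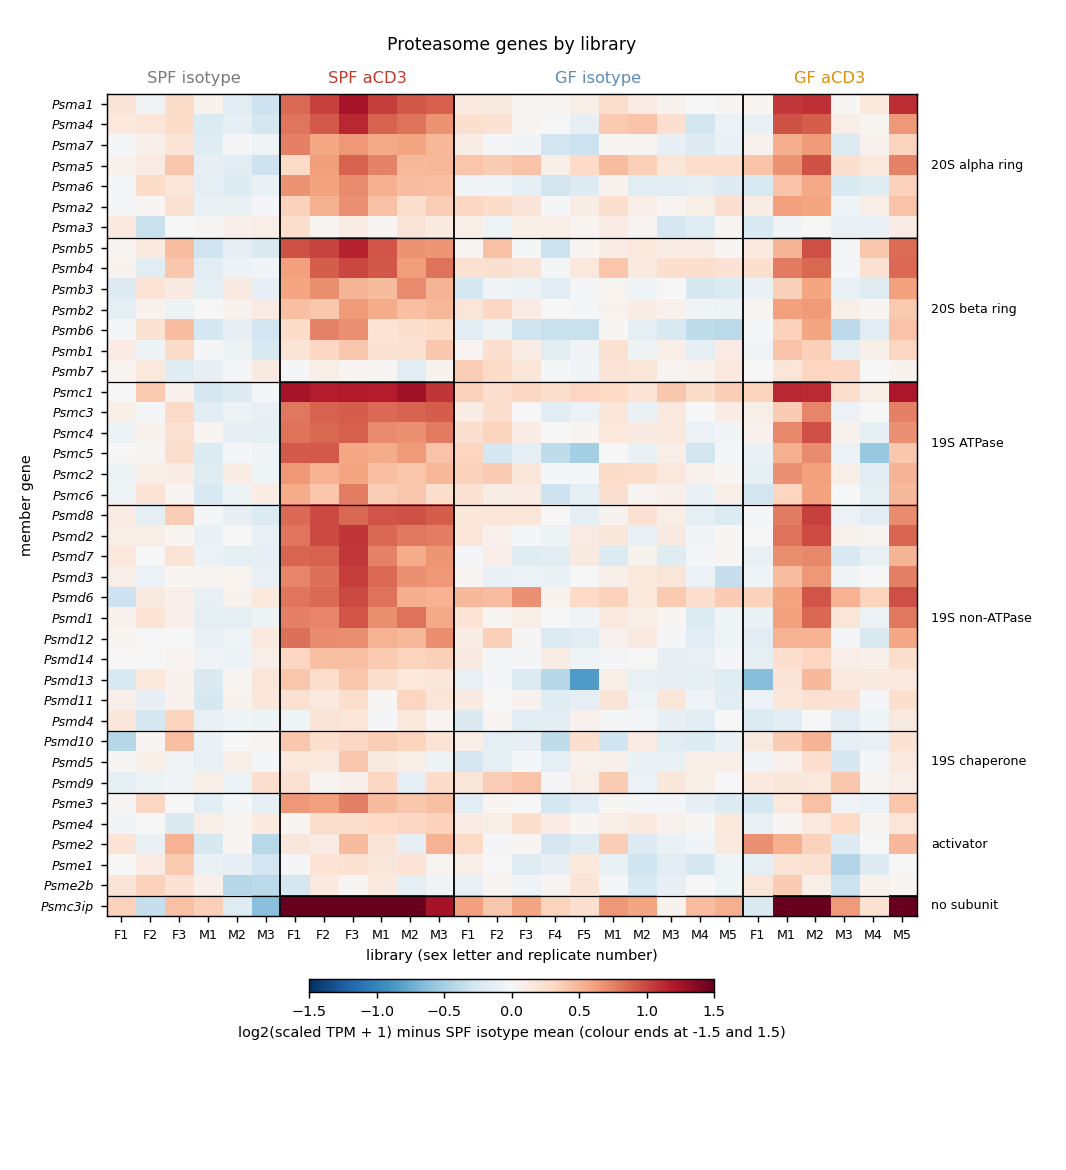
Each row is a member that passed the filter, grouped by class, and each column a library; colour is log2(scaled TPM + 1) minus the mean of the 6 SPF isotype libraries, red higher and blue lower. Red runs through most rows in the 6 SPF aCD3 libraries and in M1, M2 and M5 of GF aCD3, while Psma3, Psmb7, Psmd4, Psme1 and Psme2b stay pale in SPF aCD3; with TPM as deposited those 5 were called lower in SPF aCD3.

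The alpha ring forms the gated entrance of the barrel. Of its 7 tested genes 6 were higher in SPF aCD3, with Psma1 highest. Psma1 (chr7:114264550-114276116, mm10) ran from 32.3 to 48.9 scaled TPM in SPF isotype, with a median of 40.3, and from 73.5 to 96.1, with a median of 80.5, in SPF aCD3. The groups were separate, and the log2 fold change was 1.00 ± 0.16 (SE; limma, adjusted p = 1.73e-05). Psma4, Psma7, Psma5, Psma6 and Psma2 followed at 0.87, 0.61, 0.59, 0.57 and 0.44. Psma3 differed from its neighbours, ranging from 11.2 to 15.9 in SPF isotype and from 14.8 to 17.5 in SPF aCD3, so the groups overlapped. Its log2 fold change was 0.13, with a 95% interval of -0.03 to 0.29 (limma, adjusted p = 0.161), and was -0.27 with TPM as deposited (adjusted p = 0.0135). Its span overlaps 3110056K07Rik on the opposite strand over 4263 bases, 20.1% of its length, and how the authors' counting treated strand is not given in the sources used here. 3110056K07Rik had medians of 30.4 scaled TPM in SPF isotype and 17.3 in SPF aCD3, and its part in the Psma3 values was not tested. The germline subunit Psma8 had at most 6 reads in any library and was not tested.

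The beta ring holds the proteolytic sites, and 6 of its 7 tested genes were higher. Psmb5 (chr14:54614120-54617995), the chymotrypsin-like subunit and the target of bortezomib, ran from 16.7 to 29.1 scaled TPM in SPF isotype (median 20.3) and from 33.7 to 47.8 in SPF aCD3 (median 41.2). Every aCD3 library was above every isotype library, with a log2 fold change of 0.90 ± 0.15 (limma, adjusted p = 1.66e-05). Psmb6, the caspase-like subunit, ran from 53.1 to 90.1 (median 61.6) and from 74.9 to 109.3 (median 78.6). Its groups overlapped through the isotype libraries F2 and F3, and its log2 fold change of 0.40 ± 0.14 (limma, adjusted p = 0.0171) became -0.01 with TPM as deposited. Psmb7, the trypsin-like subunit, ran from 8.49 to 11 (median 9.85) and from 8.61 to 10.4 (median 9.99). Its groups overlapped throughout, with a log2 fold change of -0.002, a 95% interval of -0.17 to 0.16 (limma, adjusted p = 0.989) and -0.38 with TPM as deposited. Psmb7 has a span of 55860 bases and overlaps Nek6 on the opposite strand over 6561 of them. Psmb4, Psmb3, Psmb2 and Psmb1, which carry no active site, were higher by 0.82, 0.58, 0.50 and 0.30, Psmb1 standing at -0.12 with TPM as deposited. Psmb11, the subunit of thymic cortical epithelium, had at most 2 reads in any library and was not tested.

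The 6 ATPases, which unfold the substrate, were all called higher in SPF aCD3, and 3 of them with TPM as deposited. Psmc1 (chr12:100112331-100123364) ran from 10.4 to 16.8 scaled TPM in SPF isotype, with a median of 12.5, and from 27.5 to 31.4, with a median of 29.8, in SPF aCD3. The groups were far apart, and its log2 fold change of 1.18 ± 0.15 (limma, adjusted p = 1.45e-06), a 2.27-fold change, was the highest of any true subunit. With TPM as deposited it was 0.78. Psmc3, Psmc4, Psmc5 and Psmc2 stood at 0.87, 0.79, 0.67 and 0.52. Psmc6 was the lowest of the ring, running from 27.7 to 37.8 in SPF isotype (median 32.5) and from 39.4 to 56.3 in SPF aCD3 (median 43.6). Its groups were separate too, with a log2 fold change of 0.46 ± 0.13 (limma, adjusted p = 0.00329).

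Among the 11 non-ATPase subunits of the cap 9 were higher. Psmd8 (chr7:29174187-29180673) ran from 66.6 to 99.3 scaled TPM in SPF isotype (median 73.3) and from 139.5 to 153.5 in SPF aCD3 (median 146.9). Its log2 fold change of 0.92 ± 0.16 (limma, adjusted p = 2.96e-05) was the highest of the class, followed by Psmd2, a scaffold subunit, at 0.88. Psmd7, Psmd3, Psmd6, Psmd1, Psmd12 and Psmd11 stood at 0.80, 0.80, 0.76, 0.75, 0.66 and 0.20, Psmd11 turning to -0.19 with TPM as deposited. The span of Psmd1 overlaps Htr2b on the opposite strand over 12945 bases, 17.3% of its length, so its value shares the limit of strand given for Psma3. It also overlaps Gm21972 and Gm37914 on the same strand, over 7.6% and 3.6% of its length, a further limit. Psmd14, the metalloprotease that cuts the ubiquitin chain off the substrate, ran from 11.3 to 12.8 in SPF isotype (median 11.9) and from 15.03 to 16.7 in SPF aCD3 (median 15.8). These narrow groups did not overlap, and the log2 fold change was 0.38 ± 0.06 (limma, adjusted p = 2.12e-05) but -0.01 with TPM as deposited. Psmd4, a receptor for ubiquitin chains, was the lowest, at 31.6 to 47.96 in SPF isotype (median 36.1) and 36.1 to 43.5 in SPF aCD3 (median 40.8). The aCD3 libraries lay inside the isotype range. Its log2 fold change was 0.08, with a 95% interval of -0.09 to 0.25 (limma, adjusted p = 0.412), and was -0.33 with TPM as deposited. Psmd13 at 0.28 was the other uncalled member (adjusted p = 0.0821).

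Of the 3 chaperones that assemble the base of the cap, Psmd10 was called at 0.31 (limma, adjusted p = 0.0341), and Psmd5 and Psmd9 were not at 0.15 and 0.13. With TPM as deposited they stood at -0.08, -0.25 and -0.20, and of them Psmd5 was called, as lower (limma, adjusted p = 0.0146). Gm26745 on the opposite strand overlaps 12.2% of the span of Psmd9. Psmc3ip, which is no subunit, had the highest value of the 40 tested, at 2.19 to 5.68 scaled TPM in SPF isotype (median 4.30) and 10.7 to 25.2 in SPF aCD3 (median 15.3), a log2 fold change of 1.85 ± 0.33 (limma, adjusted p = 3.86e-05). Those values rest on 14 to 147 reads per library. Without it 30 of 39 tested members were higher.

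The activators dock on the barrel in place of the cap. Psme1 and Psme2 form the interferon-inducible 11S regulator, Psme3 forms its nuclear relative and Psme4 encodes PA200. Only Psme3 and Psme4 of the 5 were called higher in SPF aCD3, and with TPM as deposited neither was. Psme3 ran from 62.4 to 86.2 scaled TPM in SPF isotype (median 68.9) and from 92.2 to 118.1 in SPF aCD3 (median 102.1). Its groups were separate, with a log2 fold change of 0.56 ± 0.10 (limma, adjusted p = 6.3e-05). Psme4 ran from 6.43 to 8.50 (median 7.70) and from 7.81 to 9.96 (median 9.46), overlapping through aCD3 library F1, with a log2 fold change of 0.25 ± 0.06 (limma, adjusted p = 0.00165) and -0.13 with TPM as deposited. Psme1 ran from 250.5 to 402.4 in SPF isotype (median 296.0) and from 301.4 to 359.2 in SPF aCD3 (median 349.0). The aCD3 libraries lay inside the isotype range, and its log2 fold change of 0.14, with an interval of -0.08 to 0.35, was not called (limma, adjusted p = 0.264). Psme2 ran from 15.4 to 30.4 (median 20.5) and from 19.2 to 30.5 (median 23.9), and its log2 fold change of 0.23, with an interval of -0.08 to 0.54, was not called (limma, adjusted p = 0.198). Psme2b ran from 336.6 to 574.7 (median 497.0) and from 378.5 to 501.9 (median 446.3), and stood at -0.02 with an interval of -0.26 to 0.21 (limma, adjusted p = 0.868). Transcripts of Psme2 and Psme2b differed at 5 of 794 aligned bases, so reads could be split between the pair and both levels are uncertain. The whole span of Psme2b also lies inside Gm12185 on the same strand, which had medians of 4.63 in SPF isotype and 1.804 in SPF aCD3, and 24.6% of it inside 9930111J21Rik1, a further limit on its level.

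**Figure D2:**
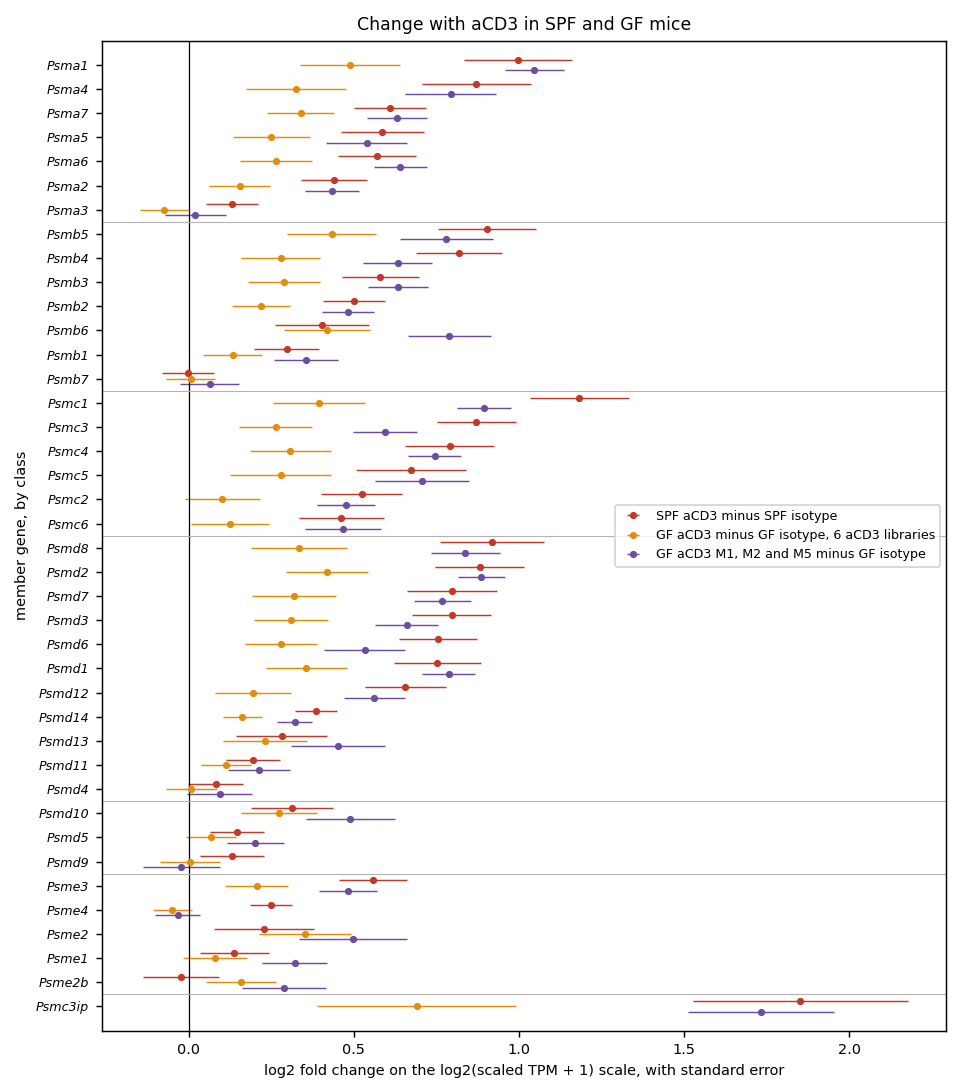
Points are log2 fold changes of the 40 tested members on the log2(scaled TPM + 1) scale, with standard errors, by class; red is SPF, orange GF with all 6 aCD3 libraries and purple GF with M1, M2 and M5. Red and purple lie near each other for most members, near 1 for Psma1 and near 0 for Psmb7, and orange lies between them and 0 for most members; with TPM as deposited 17 SPF values were called higher and 6 lower.

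The catalytic counterparts of the immunoproteasome, left out of the family above, gave different values from one another. Psmb9 ran from 33.7 to 54.8 scaled TPM in SPF isotype (median 37.4) and from 45.4 to 63.2 in SPF aCD3 (median 50.6), a log2 fold change of 0.44 ± 0.12 (limma, adjusted p = 0.00312) that was 0.03 with TPM as deposited. Psmb8 had medians of 264.4 and 244.7 and Psmb10 of 144.8 and 136.7, with log2 fold changes of -0.07 and -0.15 (limma, adjusted p = 0.549 and 0.268) that became -0.49 and -0.57, both called lower, with TPM as deposited. Their intervals were -0.26 to 0.13 and -0.39 to 0.09. Psmb5 at 0.90 and its counterpart Psmb8 at -0.07 had intervals that did not meet, though the difference between the genes was not itself tested. The labels name polyA RNA while the series' design text names a total RNA kit, so how far intronic reads enter the counts is not known. All values here are per whole genomic span with introns, and levels were not ranked between genes of different intron content.

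**Figure D3:**
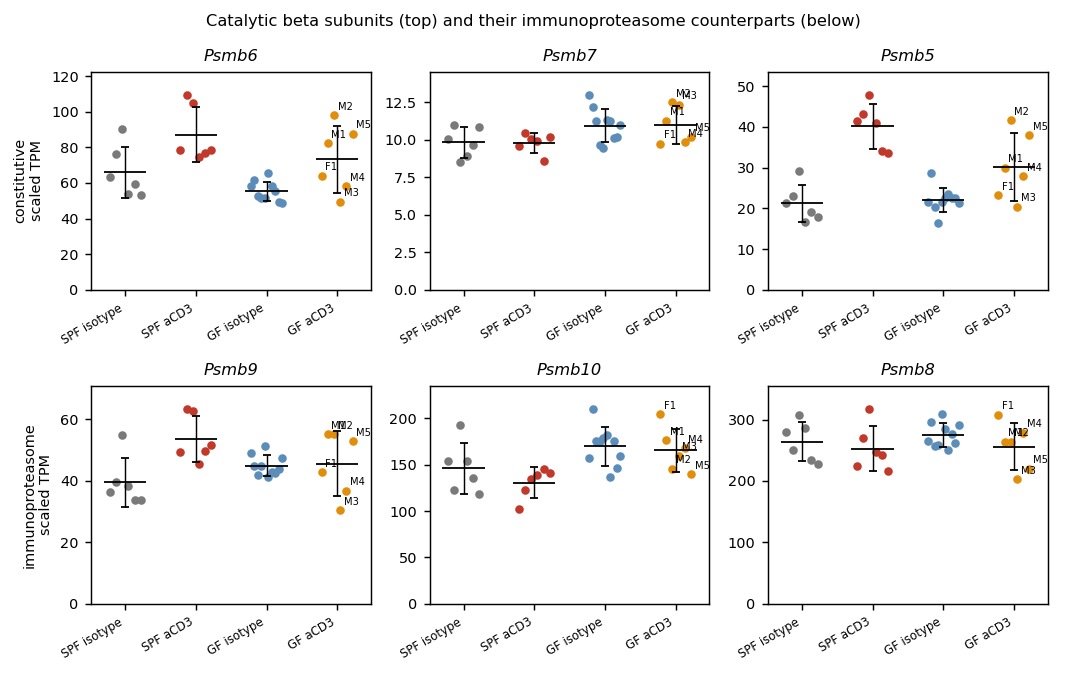
Points are scaled TPM in single libraries, with the group mean and SD, for the constitutive catalytic subunits Psmb6, Psmb7 and Psmb5 (top) and their counterparts Psmb9, Psmb10 and Psmb8 (below), on axes from 0. Psmb5 in SPF aCD3 (33.7 to 47.8) lies above SPF isotype (16.7 to 29.1), while the Psmb7, Psmb8 and Psmb10 groups overlap; with TPM as deposited those 3 were lower in SPF aCD3.

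Genes that assemble and feed the proteasome, taken from lists of related genes, gave calls in both directions in SPF mice, where 30.9% of all genes were higher and 29.2% lower. Pomp, the maturation factor of the 20S core, was highest of 5 core chaperones, rising from 14.2 to 17.9 scaled TPM (median 15.2) to 27.7 to 32.5 (median 31.8), a log2 fold change of 0.94 ± 0.12 (limma, adjusted p = 1.11e-06) and 0.53 with TPM as deposited. Psmg3 was also called higher, at 0.44 (limma, adjusted p = 0.0415) but 0.05 and not called with TPM as deposited, and Psmg1 had the lowest value at -0.20 (limma, adjusted p = 0.200), which became -0.54 and was called lower with TPM as deposited. Of 7 other subunits, cap-bound enzymes and the inhibitor Psmf1, the deubiquitinase Uchl5 was higher at 0.78, and Ube3c and Ecpas were lower at -0.42 and -0.25. The ubiquitin-activating enzyme Uba1 was higher at 0.76. Rps27a, which encodes a fused ubiquitin, was lower at -0.37. Among 10 shuttle factors and p97 genes 4 were higher, among them Vcp at 0.46 (0.05 and not called with TPM as deposited), and 3 lower, led by Ubqln2 at -0.53, shares near those of all genes.

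Of 8 regulators of proteasome genes, 2 were higher and 3 lower, near the 30.9% and 29.2% of all genes, so the counts say nothing particular to them. Nfe2l1, which drives proteasome genes when degradation is blocked, had medians of 51.03 in SPF isotype and 46.3 in SPF aCD3, with a log2 fold change of -0.17 and an interval of -0.35 to 0.01 (limma, adjusted p = 0.0993; -0.58 and called lower with TPM as deposited). Nfe2l2, the oxidative stress relative of Nfe2l1, fell from 32.9 to 38.9 scaled TPM (median 35.2) to 16.6 to 19.03 (median 17.6). Its log2 fold change was -0.97 ± 0.14 (limma, adjusted p = 4.01e-06). The small Maf genes, whose products pair with both, went apart, with Maff lower at -1.52, Mafk lower at -1.02 and Mafg higher at 0.81. Keap1, the adaptor that marks Nfe2l2 protein for degradation, was higher at 0.40, though at -0.01 with TPM as deposited. Ddi2 and Ngly1, the protease and deglycosylase that activate the Nfe2l1 protein, were not called at -0.02 and 0.13, though Ddi2 was called lower, at -0.41, with TPM as deposited.

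**Figure D4:**
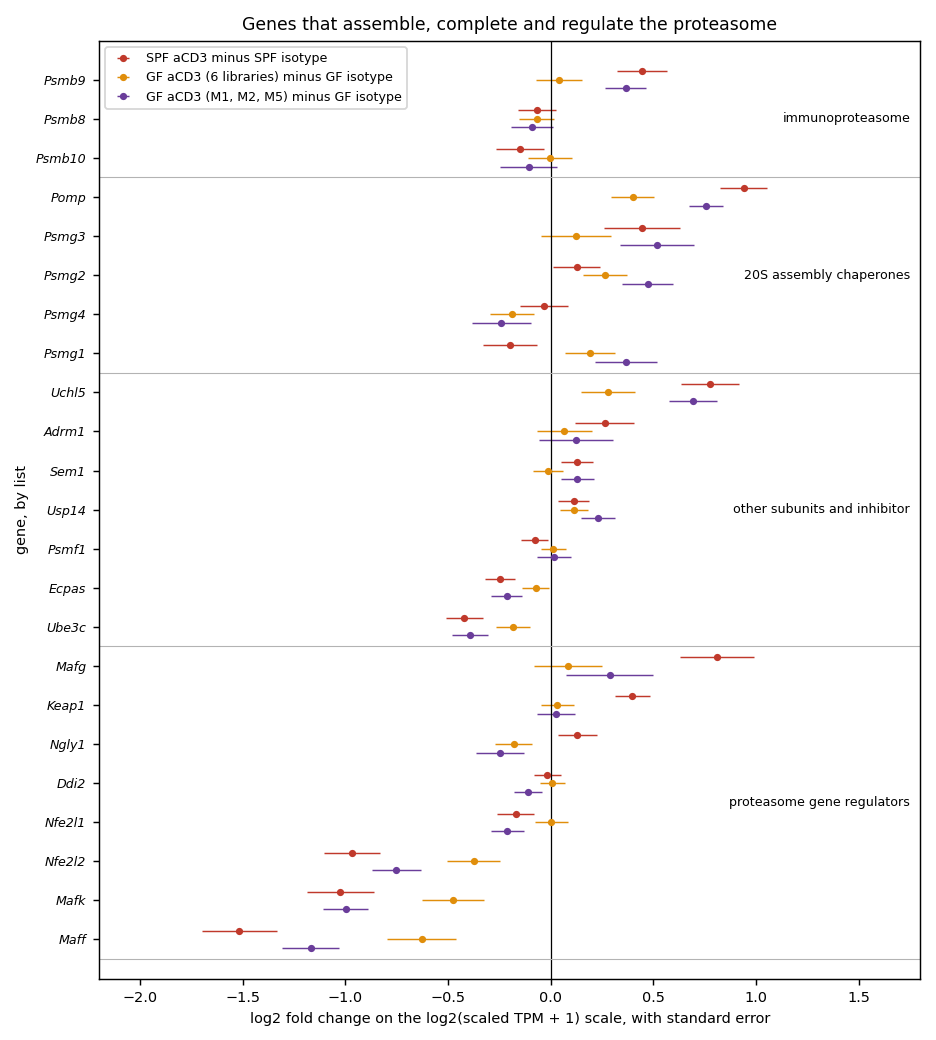
Points are log2 fold changes with standard errors on the log2(scaled TPM + 1) scale for genes of 4 related lists (immunoproteasome, core chaperones, other subunits with the inhibitor, and regulators), red for SPF, orange for GF with all 6 aCD3 libraries and purple for GF with M1, M2 and M5. In SPF mice Pomp, Uchl5 and Mafg lie near 0.8 or above it, and Maff, Mafk and Nfe2l2 near -1 or below it; these 6 kept their direction with TPM as deposited.

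In GF mice the response was split between libraries. With all 6 GF aCD3 libraries, 5 of 40 members were higher than in GF isotype and 0 lower (limma, adjusted p under 0.05), where 5.65% of all genes were higher and 4.16% lower. The 5 were Psma1, Psma7, Psmb5, Psmb6 and Psmd2, with log2 fold changes of 0.34 to 0.49 and adjusted p of 0.0423 to 0.0467, and none was called with TPM as deposited, where 2.46% of genes were higher and 4.61% lower. Without Rn45s and histone genes 4 were called, where 3.41% of genes were higher and 1.54% lower. In 0 of 40 members did the groups separate, as they did upward in 0.0495% and downward in 0.0907% of all genes. The median over the members was 0.26 and over all genes -0.005. Psma1 stood at 40.5 to 48.5 scaled TPM in GF isotype (median 42.5), and at 85.1, 87.5 and 88.2 in M1, M2 and M5 but 41.1, 40.9 and 45.2 in F1, M3 and M4. The first 3 lay above the SPF isotype range and the others inside the GF isotype range. Psmb5 stood at 16.5 to 28.6 in GF isotype (median 22.02), at 30.0, 41.6 and 37.9 in M1, M2 and M5 and at 23.2, 20.4 and 27.9 in F1, M3 and M4.

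Counting over the family, 32, 33 and 33 of the 40 members in M1, M2 and M5 lay above every GF isotype library, against 1, 3 and 1 in F1, M3 and M4. For all genes the shares were 29.2%, 30.1% and 30.2% against 8.2%, 9.83% and 7.9%. Below every GF isotype library lay 0 members in M1, M2 and M5 and 4, 5 and 5 in F1, M3 and M4, more than lay above, where the shares of all genes were 27.4%, 27.9% and 28.4% against 8.44%, 8.62% and 7.21%. In SPF aCD3 the counts were 29 to 32 per library. Leaving out F1, M3 and M4, which was decided with these data in view, left only male GF aCD3 libraries. The sex term then came from the other groups. In that fit 32 members were higher, where 26.6% of all genes were, and the median was 0.54. Of these 32, 29 were among the 31 called in SPF mice (93.5% of the SPF genes and 90.6% of the GF genes). Over all genes, 2803 were called higher in both, 74.9% of the SPF list and 86.8% of the GF list, and since most members were called in each fit much of their overlap follows from the counts alone. Of the members, Psmd13, Psme1 and Psme2 were called in GF alone, and Psmd11 and Psme4 in SPF alone. Whether those 5 differ between SPF and GF did not pass the interaction test with these libraries left out, in which 0 of 40 members were called (4 at an unadjusted p under 0.05). The labels do not say why F1, M3 and M4 differ. Marker sums moved with the split. The 10 T cell markers summed to 2331, 2143 and 2337 scaled TPM in M1, M2 and M5 and to 2081, 1832 and 2022 in F1, M3 and M4. Single genes of this list went both ways. Cd3e stood at 475.9, 456.9 and 517.9 against 336.2, 282.2 and 315.1, and Ptprc at 104.6, 97.7 and 101.2 against 123.8, 132.7 and 133.8. The 8 B and plasma cell markers summed to 7.67, 9.58 and 9.41 scaled TPM in M1, M2 and M5 and to 17.2, 79.5 and 26.6 in F1, M3 and M4, Jchain being most of the latter sums, and Ms4a1 and Pax5 were under 0.1 in all 6. The 8 myeloid markers summed to 50.6, 52.6 and 71.5 against 14.5, 7.3 and 11.2, mostly Cd68, and the 2 CD8 T cell markers to 14.5, 10.7 and 15.4 against 3.04, 4.45 and 6.48. The 8 epithelial markers stood at 8.7, 7.56 and 6.98 against 26.1, 8.26 and 20.3, so their ranges overlapped. The ranges of the 6 acinar genes overlapped too, at 5.85, 27.4 and 2.60 against 68.3, 315.6 and 14.7. The part of these transcripts in the split was not tested.

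In GF mice with all 6 libraries, the ends of the core rings were the genes that stood there in SPF mice. In the alpha ring Psma1 was highest at 0.49 ± 0.15 and Psma3, at 12.1 to 15.7 scaled TPM in GF aCD3 and 11.9 to 15.8 in GF isotype, lowest at -0.07 (limma, adjusted p = 0.0456 and 0.498). In the beta ring Psmb5 was highest at 0.43 ± 0.14 and Psmb7, at 9.73 to 12.5 and 9.48 to 12.97 in GF aCD3 and GF isotype, lowest at 0.005 (adjusted p = 0.0467 and 0.972). Psmb6 stood at 48.96 to 65.4 in GF isotype (median 54) and at 49.4 to 98.1 in GF aCD3 (median 73.3), a log2 fold change of 0.42 ± 0.13 (limma, adjusted p = 0.0467). The ends of the cap classes included other genes. Among the ATPases Psmc1 was highest at 0.39 and Psmc2, at 20.1 to 37.1 in GF aCD3 and 22.1 to 29.8 in GF isotype, lowest at 0.10, with 0 of 6 called (limma, adjusted p = 0.0597 and 0.555). In the non-ATPase class Psmd2, at 44.8 to 88.8 in GF aCD3 and 41.5 to 50.8 in GF isotype, was highest at 0.42 and Psmd4 lowest at 0.01, and Psmd14 was at 0.16 (limma, adjusted p = 0.0423, 0.960 and 0.0681). Of the activators none was called with all 6 libraries: Psme2 stood at 0.35, Psme3 at 0.21, Psme2b at 0.16, Psme1 at 0.08 and Psme4 at -0.05 (limma, adjusted p of 0.0855 to 0.597). Psme2 was highest in F1, at 34.3, above all 10 GF isotype libraries (17.4 to 27.3), whereas Psma1 in F1 lay among them. Pomp was called at 0.40, and Maff and Mafk were lower at -0.63 and -0.48.

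Without F1, M3 and M4, Psma1 was at 1.05, Psmb5 at 0.78, Psmb6 at 0.79, Psmd2 at 0.89 and Psmd14 at 0.32, and all 6 ATPases were called, from Psmc6 at 0.47 and Psmc2 at 0.48 to Psmc1 at 0.89 (limma, adjusted p of 9.66e-10 to 0.00157 over these 11 genes). Psma3, Psmb7 and Psmd4 were not called at 0.02, 0.06 and 0.09 (limma, adjusted p = 0.869, 0.584 and 0.449). Among the activators Psme1, Psme2 and Psme3 were called at 0.32, 0.50 and 0.48 (limma, adjusted p = 0.00912, 0.0136 and 8.62e-05), and Psme2b at 0.29 and Psme4 at -0.03 were not. Psmb9 was called at 0.36 and Psmb8 and Psmb10 were not, and Pomp stood at 0.76, Maff at -1.17 and Mafk at -0.999. With all 6 libraries the mean of Psmb9 was 45.5 scaled TPM in GF aCD3 and 44.9 in GF isotype. Those of Psmb8 were 256.0 and 275.0, and those of Psmb10 165.6 and 169.7. The value of Psmb9 thus depends on leaving out those 3 libraries.

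By the sample numbers in the column headers the GF libraries fall into separate ranges, 25 through 33 and 48 through 54, and both ranges include treated and control libraries, the treated ones of both kinds. Within the first range 0 of 40 members were called (8 at an unadjusted p under 0.05, median 0.28) and within the second 0 (3 unadjusted, median 0.18). With the range as a covariate 0 were called (16 unadjusted). These fits called almost nothing: of all 12132 genes 0.00824%, 1 gene, was called lower in the first range and 0 higher, 0.00824% was called higher in the second and 0 lower, and 0 were called with the covariate. The GF count moved with most single libraries. It was 21 without F1, 19 without M3, 22 without M4 and 0 without M1, M2 or M5 of GF aCD3. It was 0 without any 1 of the GF isotype libraries other than F1 (2), 0 without SPF isotype F1, M2 or M3 or SPF aCD3 F2, F3, M1 or M3, 3 without SPF isotype F2, and 2 without SPF isotype F3 or M1 or SPF aCD3 M2.

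**Figure D5:**
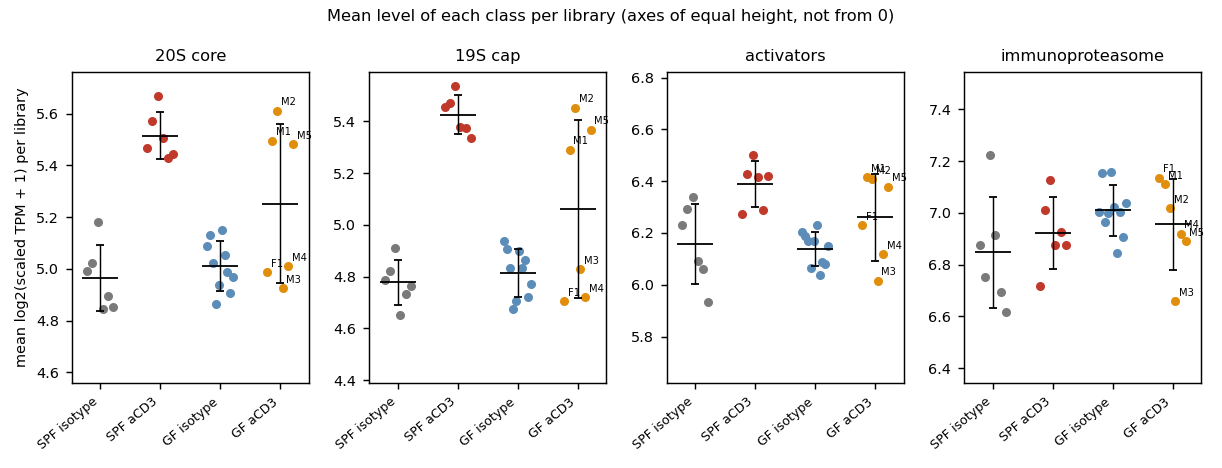
Each point is a library's mean log2(scaled TPM + 1) over the tested genes of a class (14 of the 20S core, 17 of the 19S cap, 5 activators, 3 of the immunoproteasome), with group mean and SD, on axes of equal height that do not start at 0. In the core and cap M1, M2 and M5 of GF aCD3 lie within or, for M1 in the cap, just below the SPF aCD3 range and F1, M3 and M4 among the isotype libraries, while immunoproteasome groups overlap; with TPM as deposited the median member was 0.12 higher in GF aCD3 than in SPF aCD3.

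The class means per library gave the same picture without a test. The 20S core ran from 4.84 to 5.18 in SPF isotype and from 5.43 to 5.67 in SPF aCD3 on the log2 scale, and the 19S cap from 4.65 to 4.91 and from 5.34 to 5.54, without overlap. In GF isotype the core ran from 4.87 to 5.15 and the cap from 4.67 to 4.94, and M1, M2 and M5 of GF aCD3 lay at 5.48 to 5.61 and 5.29 to 5.45. For the activators the SPF ranges, 5.93 to 6.34 and 6.27 to 6.5, overlapped, as did those of the immunoproteasome, 6.62 to 7.22 and 6.72 to 7.13.

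Without aCD3, no difference between GF and SPF mice passed the test. In the column headers all SPF libraries carry sample numbers 1 through 12 and all GF libraries later ones, so in every comparison of GF with SPF the state of the mice and the range of sample numbers cannot be told apart. What the numbers stand for is not given in the labels or headers. Between GF and SPF isotype 0 of 40 members were called in either direction by limma (3 at an unadjusted p under 0.05), where 0.544% of all genes were higher in GF and 1.08% lower, and the members' median was 0.03. A fit on recovered reads with voom also called 0. Psmc3ip, Psmd6 and Psma5 had the highest values at 0.45, 0.35 and 0.31, and Psmb6, Psmd13 and Psma6 the lowest at -0.23, -0.21 and -0.13. Psmd6 ran from 25.3 to 39.8 scaled TPM in GF isotype (median 31.5) and from 19.3 to 27.3 in SPF isotype (median 25.5), with an interval of 0.13 to 0.57 (limma, adjusted p = 0.0932). The zero depends on the scaling: 6 members were higher in GF with TPM as deposited and 13 with TPM recomputed without Rn45s and histone genes, where 6.42% and 18.0% of all genes were higher and 0.755% and 0.992% lower. Without the 3 GF aCD3 libraries, which enter this fit through the shared spread and sex term, 2 were higher, where 2.04% of genes were higher and 2.21% lower. In 0 members did the groups separate, against 0.346% of genes upward and 0.602% downward.

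Between GF aCD3 and SPF aCD3, 18 of 40 members were lower in GF and 0 higher (limma, adjusted p under 0.05), where 17.0% of genes were lower and 15.8% higher. The 18 were 11 of the 17 tested cap subunits, 5 of the 14 of the core and 2 of the 5 activators, and whether the classes differ was not tested. Psmc3, an ATPase, ran from 61.3 to 110.9 scaled TPM in GF aCD3 (median 77.5) and from 113.4 to 124.0 in SPF aCD3 (median 121.4), the only member whose groups did not overlap, where 2.68% of genes separated downward and 3.14% upward. Its log2 fold change was -0.56 ± 0.12 (limma, adjusted p = 0.00231). Psmc3ip and Psmd8 were the other low ends at -0.71 and -0.54, and Psme2b, Psmb7 and Psme2 the high ends at 0.15, 0.15 and 0.13. The low ends differed by library. Psmc3 stood at 85.16, 109.3 and 110.9 in M1, M2 and M5 and at 69.75, 61.31 and 65.44 in F1, M3 and M4. Psmd8 stood at 132.9, 157.1 and 126.1 against 75.09, 72.15 and 68.99, with SPF aCD3 at 139.5 to 153.5. Psmc3ip stood at 19.39, 25.04 and 15.12 against 3.237, 6.678 and 4.752, with SPF aCD3 at 10.72 to 25.2. Without F1, M3 and M4, 0 members were called (3 at an unadjusted p under 0.05) and the median was 0.02, where 0.734% of genes were higher and 1.52% lower. With TPM as deposited 12 members were higher in GF and 0 lower, where 48.9% and 4.46% of genes were, and without Rn45s and histone genes 4 were higher and 1 lower, where 39.9% and 4.92% were.

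The test of the difference between the GF and SPF responses called 4 of 40 members, all with a smaller response in GF, where 6.57% of genes were lower and 5.14% higher. They were Psmc1 at -0.79 ± 0.20, Psmc3 at -0.61 ± 0.16, Psmb4 at -0.54 ± 0.18 and Psme4 at -0.30 ± 0.09 (limma, adjusted p = 0.0214, 0.0241, 0.0479 and 0.0327). Psmc3ip had the lowest value at -1.16 and was not called (adjusted p = 0.0773), and Psme2b, Psme2 and Psmb6 were the high ends at 0.18, 0.12 and 0.02. Psmc1 stood at 14.6 to 17.1 scaled TPM in GF isotype (median 15.7), and at 28.8, 28.4 and 30.6 in M1, M2 and M5 of GF aCD3, inside the SPF aCD3 range, but at 16.1, 15.3 and 13.6 in F1, M3 and M4. With TPM as deposited 2 of the 40 passed, both lower, where 1.04% of genes were lower and 2.44% higher, and 2 without Rn45s and histone genes, where 2.22% and 2.34% were. Without those 3 libraries 0 of the 40 passed, where 0.14% of genes were lower and 0.0989% higher, and the 4 differences were -0.29, -0.28, -0.19 and -0.28.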

How the data were processed

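Groups, replicate names and sex were read from the labels for 28 libraries. The deposited values are TPM that the authors obtained from HOMER's analyzeRepeats.pl for RefSeq genes (mouse build mm10), per the file headers. Aligner settings and use of strand are not given in the sources used here. The length equals the genomic span in 99.27% of genes, so the deposited TPM are per span with introns. A further 26 TPM columns match no sample and were not used. Whole reads were recovered from TPM and length in 100.0% of the values of up to 20 reads that were checked (within 0.1 read). Read counts cover counting error only.

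TPM were divided by size factors (median of ratios over 12062 genes above 0 in all libraries; 0.716 to 1.242). Genes reaching a scaled TPM of 1 in 6 or more libraries entered limma 3.58.1 (R 4.3.3) on log2(scaled TPM + 1), which understates changes of low genes, modelling group means plus sex across the 28 libraries. P-values were adjusted by Benjamini-Hochberg over 12132 genes per comparison, threshold 0.05. The fit was also run on simulated data, with few genes changed and in SPF aCD3 alone. That run does not cover the wide shifts or the GF split found here. The filter kept 40 of 42 members. No 2 libraries were identical (378 pairs, Pearson's r 0.855 to 0.972). Tables were made with Python 3.11.15, NumPy 2.4.6 and pandas 2.3.3.

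Members and lists were chosen with earlier results of these data known. Described by library are all activators, Psmb5, Psmb6, Psmb7, Psmd14 and, per class, the highest and lowest member for each aCD3 response; for other comparisons the 3 highest and 3 lowest, and for related lists the ends, of which some are not reported here. Other genes with values (among them Psmd6, Psmc3ip, Nfe2l1 and Nfe2l2) were added after their values were seen. Alternatives were TPM as deposited, TPM without Rn45s and 105 histone genes, pseudocounts of 0.1 and 5, other filters, voom on recovered reads, array weights, fewer libraries, no sex term and a replicate block.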

Additional observations from a re-analysis of the deposited data

Results flagged for a closer look

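In 3 of 104 sets of member values per group, a single library lay far from the rest; about 5 are expected by chance at 1 in 20. Psma3 in SPF isotype was lowest in F2, at 11.15 scaled TPM. Psmd13 in GF aCD3 was lowest in F1, at 33.08. Psme4 in SPF aCD3 was lowest in F1, at 7.815.

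The aCD3 response differed between GF and SPF mice by the interaction test for 4 members, as log2 differences of GF minus SPF: Psmc1 at -0.79, Psmb4 at -0.54, Psme4 at -0.30 and Psmc3 at -0.61. None of the 4 was called when GF aCD3 libraries F1, M3 and M4 were left out.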

How the results depend on the processing

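In the SPF response, leaving out 1 library at a time gave 29 to 32 higher and 0 lower members, and the replicate block gave 31 and 0. With TPM as deposited 17 were higher and 6 lower. Replicate names do not pair the libraries (correlations of -0.213 to 0.208 between same-named libraries, the best match being the own name for 1 of 12), so the replicate block is given here alone.

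In GF, 5 higher members became 0 with TPM as deposited, 0 without a low-value filter, 3 with voom on recovered reads, 14 with array weights, 0 with GF libraries alone, 9 without a sex term, 0 with the replicate block, 32 without F1, M3 and M4, and 0 within either range of sample numbers or with the range as a covariate. Leaving out 1 library gave 0 to 22, with 0 also after dropping most single isotype or SPF libraries.

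For GF against SPF isotype, higher members were 6 with TPM as deposited, 13 without Rn45s and histone genes, 3 with array weights, 1 with the 2 groups alone and 2 without the 3 GF aCD3 libraries; leaving out 1 library gave 0 to 0. For GF against SPF aCD3, 18 lower became 0 with TPM as deposited (12 higher), 1 without Rn45s and histone genes (4 higher), 9 with array weights, 1 with the 2 groups alone and 0 without F1, M3 and M4; leaving out 1 library gave 3 (F1) to 24, with 10 without M3 and 9 without M4. The 4 members lower in the interaction became 2 with TPM as deposited, 2 without Rn45s and histone genes, 0 with the replicate block and 0 without the 3 libraries, and ran from 0 (without F1) to 20 (without M2), with 1 without M4, 14 without M1, 18 without M5 and 2 without SPF aCD3 M2 or M3.

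With TPM as deposited the sign turned in 13 of 40 members in SPF and 22 between the aCD3 groups. Those called on either scale were, in SPF, Psma3 (-0.265), Psmb1 (-0.116), Psmb6 (-0.014), Psmd10 (-0.082), Psmd11 (-0.191), Psmd14 (-0.010), Psmd4 (-0.330), Psmd5 (-0.250), Psme1 (-0.284) and Psme4 (-0.129). Between the aCD3 groups they were Psma2 (0.279), Psma5 (0.329), Psma7 (0.046), Psmb1 (0.280), Psmb3 (0.004), Psmc4 (0.021), Psmd1 (0.008), Psmd11 (0.292), Psmd14 (0.148), Psmd4 (0.249), Psmd5 (0.263), Psmd6 (0.278), Psme1 (0.260) and Psme4 (0.182). Without Rn45s and histone genes 16 turned there, of them called in either fit Psmd11 (0.199), Psmd14 (0.049) and Psme4 (0.088). Without F1, M3 and M4, 20 turned, of them called in either fit Psma4 (0.027), Psmc1 (0.016), Psmc4 (0.053), Psmd1 (0.065) and Psmd2 (0.046). The cause was not tested.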

Other observations

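The 9 members not called in SPF aCD3 had a median span of 16248 bases (1058 to 55860) and the 31 higher members of 11033 (2501 to 108586), so the ranges overlapped, with the shortest member among the first and the longest among the second. TPM here are per whole span, introns included, and the part of span in the calls was not tested.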
